A study of Mus musculus with 7 samples.

Results

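The Gimap genes encode GTPases of immunity-associated proteins, a family of small lymphocyte GTP-binding proteins. All 8 members examined (Gimap1, Gimap3, Gimap4, Gimap5, Gimap6, Gimap7, Gimap8 and Gimap9) were found by gene symbol among the 32212 gene identifiers measured. Gimap4 drew attention in the comparison of Ze-qi decoction (ZQD) with control tumours, and its relatives were taken by name. The family was thus chosen by its ZQD and control values, which are given below as a description.

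The libraries are bulk mRNA sequencing of tumours grown under the skin of C57BL/6J mice, of WT genotype, from LLC (Lewis lung carcinoma) cells, a mouse lung cancer line that grows as a graft. There were 3 ZQD libraries, from mice given the herbal decoction at 42.67 g/kg, and 4 control libraries, from tumour-bearing model mice labelled as having no treatment. Cells were injected at 6 weeks of age, groups were assigned after 3 days, and tumours were taken at day 22 in the protocol or day 21 in the design text. The protocol gives 8 mice per group and does not say that each library is from its own mouse. The p-values therefore reflect only how far these libraries differ from each other, and that spread may be technical. The labels give the cell type as tumour cells, but a subcutaneous graft holds whatever host lymphocytes and vessels entered it. In bulk tumour RNA, fewer cells of a type and less RNA per cell cannot be told apart.

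Proteins of the family carry a guanine nucleotide-binding domain of the AIG1 type, bind GTP and sit on intracellular membranes or in the cytosol. They are best known for keeping T and B cells alive: loss of Gimap5 in mice and rats, or of Gimap1 in mice, depletes mature lymphocytes. Some members are also expressed in endothelium, the lining of blood vessels. Their genes form a single cluster on mouse chromosome 6. In the GENCODE M21 annotation the order was Gimap8, Gimap9, Gimap4, Gimap6, Gimap7, Gimap1, Gimap5 and Gimap3, with Gimap6 and Gimap3 on the minus strand. The protein-coding genes next to the cluster were AI854703 before Gimap8 and Tmem176b after Gimap3.

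The promoters of 3 members are shown because they stand at different places in the ZQD comparison below. Gimap4 had the largest difference of the family and its neighbour Gimap9 the smallest of the 6 members tested. Gimap8 was second to Gimap4. Each run is the 250 bases before the RefSeq start on GRCm38.p6: chr6:48684328-48684577, plus strand for Gimap4, chr6:48646984-48647233, plus strand for Gimap8 and chr6:48675885-48676134, plus strand for Gimap9. RefSeq lists 2 starts for Gimap8, and the first is shown. Capitals mark matches on either strand to AGGAAG, a core bound by ETS factors, and TGTGGT, a core bound by RUNX factors.
Gimap4: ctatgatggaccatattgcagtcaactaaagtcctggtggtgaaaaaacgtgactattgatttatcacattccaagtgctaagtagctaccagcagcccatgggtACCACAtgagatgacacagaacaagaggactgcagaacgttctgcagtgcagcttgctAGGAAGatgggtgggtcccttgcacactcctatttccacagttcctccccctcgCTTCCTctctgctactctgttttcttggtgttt
Gimap8: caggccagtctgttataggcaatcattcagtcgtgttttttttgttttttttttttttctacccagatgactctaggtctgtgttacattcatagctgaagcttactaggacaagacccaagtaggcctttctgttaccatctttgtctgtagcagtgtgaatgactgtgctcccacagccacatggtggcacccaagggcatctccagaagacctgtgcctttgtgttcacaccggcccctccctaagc
Gimap9: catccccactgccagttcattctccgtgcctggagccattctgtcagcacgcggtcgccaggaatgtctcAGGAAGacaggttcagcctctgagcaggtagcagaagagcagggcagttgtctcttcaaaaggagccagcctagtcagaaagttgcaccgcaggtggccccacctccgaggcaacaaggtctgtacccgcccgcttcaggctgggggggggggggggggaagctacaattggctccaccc

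Both motifs were present before Gimap4, with AGGAAG 2 times and TGTGGT 1 time. Gimap9 held a single AGGAAG and Gimap8 neither motif. Across the family, AGGAAG was found in 6 of 8 promoters, against 29.2% of 27018 RefSeq promoters of the same length. TGTGGT was found in 3 of 8 (Gimap1, Gimap4 and Gimap7), against 14.2%, and CCACCC, a core bound by KLF factors, in 4 of 8, against 27.7%. The core of TCF and LEF factors, CTTTGAT, had no match in the 8 windows, and 3.23% of all promoters held it. No member held the core of GATA-type factors, AGATAA, found in 10.3% of all promoters. The interferon-stimulated response element (GAAA, any 2 bases, then GAAA) was in 0 of 8, against 3.04%. TATAAA was found before Gimap6 only, against 13.0% of all promoters. The count of CpG dinucleotides was 8 in Gimap9 and 1 to 3 in the other 7 members, with a median of 6 over all promoters. A match of letters is a description and not evidence of binding.

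Levels are given in FPKM, fragments counted relative to gene length and to the total reads counted, so that genes can be set beside each other. The 7 libraries held 32065288 to 49914394 counted reads (two-sided exact permutation p = 0.543 for ZQD against control), and the family drew 2133 to 3888 of them in a library. Mitochondrially encoded genes took 10.2% ± 1.23 of reads in ZQD (SD, n = 3) and 6.71% ± 1.19 in control (SD, n = 4; exact permutation p = 0.0286, the smallest possible), so other genes share a smaller remainder in ZQD. When these genes were left out of the scaling, the log2 difference of Gimap4, ZQD minus control, was 0.93 instead of 0.87. The median of the 6 members tested was 0.51 instead of 0.46. The part of the mitochondrial share in the Gimap values was not tested. The tumour label could be checked only weakly. Of 7 epithelial and lung carcinoma markers, Cdh1 (0.777 ± 0.184 FPKM in ZQD and 1.002 ± 0.322 in control) passed a filter on low values (0.5 FPKM in at least 3 libraries). Krt18 was at 0.286 ± 0.360 FPKM in ZQD and 0.327 ± 0.249 in control, and Krt8, Epcam, Nkx2-1 and Sftpc were lower still.

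Gimap4 (ENSMUSG00000054435) was the most abundant member, with 26.8, 25.0 and 23.0 FPKM in ZQD 1 to 3, against 12.4, 13.8, 15.5 and 11.9 FPKM in controls 1 to 4. Every ZQD library lay above every control library. The lowest ZQD value was 1.48 times the highest control value. In mice, Gimap4 is a lymphocyte GTPase whose loss alters the course of T cell death. Its mean level was 24.9 ± 1.91 FPKM in ZQD (SD, n = 3) and 13.4 ± 1.62 FPKM in control (SD, n = 4). On the scale of log2(FPKM + 0.5), which understates changes of low genes, the difference was 0.87 (SE 0.11), and 127 of the 14838 genes tested had a larger one. With any 1 library left out it lay between 0.82 and 0.94. These values rest on 862 to 1816 reads per library, for which counting error alone is 3.41% to 2.35%.

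**Figure D1:**
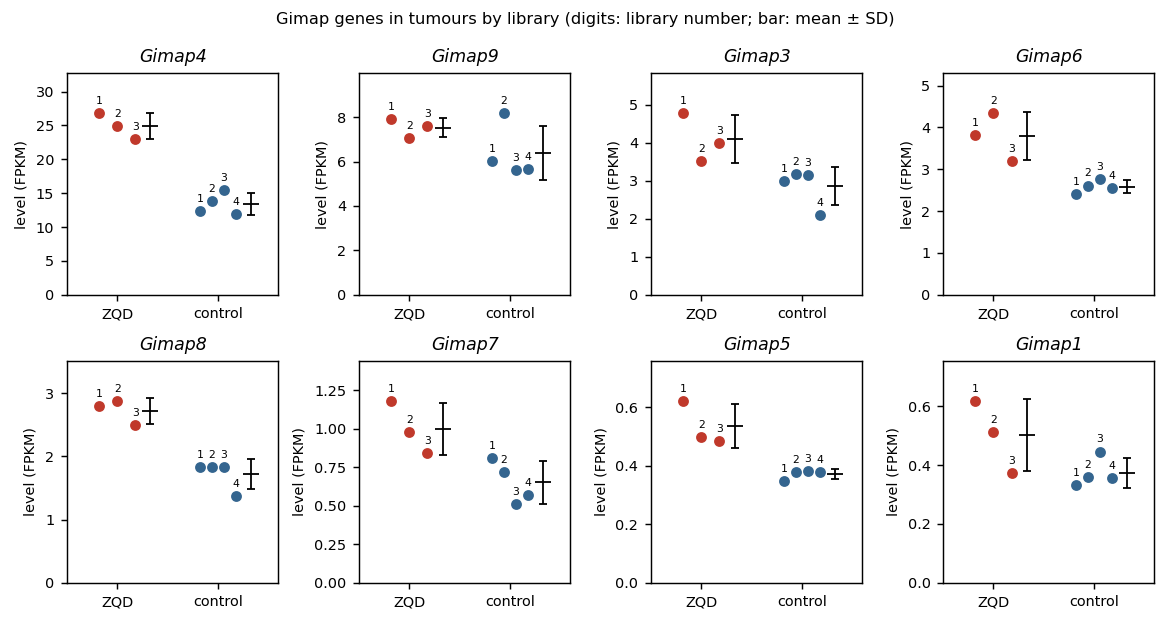
Level of each Gimap gene in FPKM in the 3 ZQD and 4 control libraries, with the library number at each point and the mean ± SD beside each group. The ZQD points lie above all control points for Gimap4, Gimap3, Gimap6, Gimap8, Gimap7 and Gimap5, and the groups overlap for Gimap9 and Gimap1.

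Among the other members expressed at more than 1 FPKM, Gimap8 encodes the largest protein of the family, with several GTPase domains. Gimap8 was at 2.79, 2.87 and 2.49 FPKM in ZQD 1 to 3 and at 1.84, 1.83, 1.84 and 1.37 FPKM in controls 1 to 4. The groups did not overlap, and controls 1 to 3 were nearly alike while control 4 was lowest. Its log2 difference was 0.54 (SE 0.12). Gimap6 takes part in autophagy through the GABARAP-type protein Gabarapl2. It was at 3.83, 4.34 and 3.20 FPKM in ZQD and at 2.42, 2.61, 2.77 and 2.54 FPKM in control. Here too the groups did not overlap, with ZQD 2 highest and ZQD 3 nearest to the controls. The log2 difference was 0.47 (SE 0.12).

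Gimap3 is a close relative of Gimap5 that is functional in mouse. It was at 4.78, 3.53 and 3.98 FPKM in ZQD 1 to 3, against 2.99, 3.17, 3.15 and 2.11 FPKM in controls 1 to 4. The lowest ZQD value was 1.11 times the highest control value, so the groups were only narrowly apart. The log2 difference was 0.46 (SE 0.15). Gimap9, the member second in level, was at 7.90, 7.05 and 7.60 FPKM in ZQD and at 6.03, 8.18, 5.64 and 5.66 FPKM in control. Control 2 was the highest of all 7 libraries for this gene, and the groups overlapped. Its log2 difference was 0.24 (SE 0.13). It was 0.35 without control 2, 0.19 without control 3 or control 4, and 0.14 on the TPM scale.

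The remaining members were near or under 1 FPKM. Gimap7, whose human counterpart stimulates GTP hydrolysis by another family member, was at 1.18, 0.979 and 0.841 FPKM in ZQD and at 0.810, 0.719, 0.510 and 0.568 FPKM in control. Its groups were separated by the smallest margin of the family (1.04 times), on 38 to 101 reads per library. Gimap5, a lysosomal protein required for lymphocyte survival, was at 0.621, 0.499 and 0.485 FPKM in ZQD, against 0.348, 0.378, 0.383 and 0.379 FPKM in control. Gimap1, needed by mature B and T cells in mice, was at 0.618, 0.513 and 0.374 FPKM in ZQD, against 0.332, 0.360, 0.447 and 0.355 FPKM in control. The groups of Gimap5 did not overlap, whereas ZQD 3 lay below control 3 for Gimap1. These 2 genes reached 0.5 FPKM in only 1 and 2 libraries and so did not pass the filter on low values, so they were not tested. Their log2 differences were 0.24 for Gimap5 and 0.19 for Gimap1 (0.11 without ZQD 1), and the added 0.5 shrinks both. On reads rebuilt from the FPKM, DESeq2 put them at 0.56 (SE 0.26) and 0.47 (SE 0.33).

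All 8 members had a positive difference, and in 6 of 8 every ZQD library lay above every control library. Of the 6 members that passed the filter, 5 had such groups, beside 5.35% of all genes tested with ZQD wholly higher, 9.84% with ZQD wholly lower and 41.8% with any positive difference. Because the same comparison led to the family, nothing is read from these shares. The median log2 difference of the 6 members was 0.46, against -0.043 over all genes tested, and it lay between 0.40 and 0.52 with any 1 library left out. In limma, 0 of 6 members passed a Benjamini-Hochberg adjusted p of 0.05, as did 0% of the 14838 genes, with adjusted p from 0.154 to 0.429 for the 5 members other than Gimap4. At an unadjusted p of 0.05, 5 of 6 members passed, all of them higher in ZQD, beside 15.5% of all genes in either direction and 5.21% higher in ZQD. edgeR on rebuilt reads of the filtered genes also passed 0 members (0% of all genes). Without the filter on low values edgeR passed Gimap4 among the 8 members, beside 0.0146% of all genes (4 of 27421), so this call depends on the filter. DESeq2 passed 3 of 6, beside 4.13% of the genes to which it gave an adjusted p. The 3 were Gimap4, Gimap8 (adjusted p = 0.00362) and Gimap6 (adjusted p = 0.0120). They also passed in DESeq2 without the filter, beside 3.07% of the 16761 genes given an adjusted p there. Gimap3 (0.0752) and Gimap9 (0.405) did not pass in DESeq2, and Gimap7 was given no adjusted p. Gimap4 and its family were chosen by this same comparison. Their calls and p-values, and the shares set beside them, are therefore a description and not a test.

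**Figure D2:**
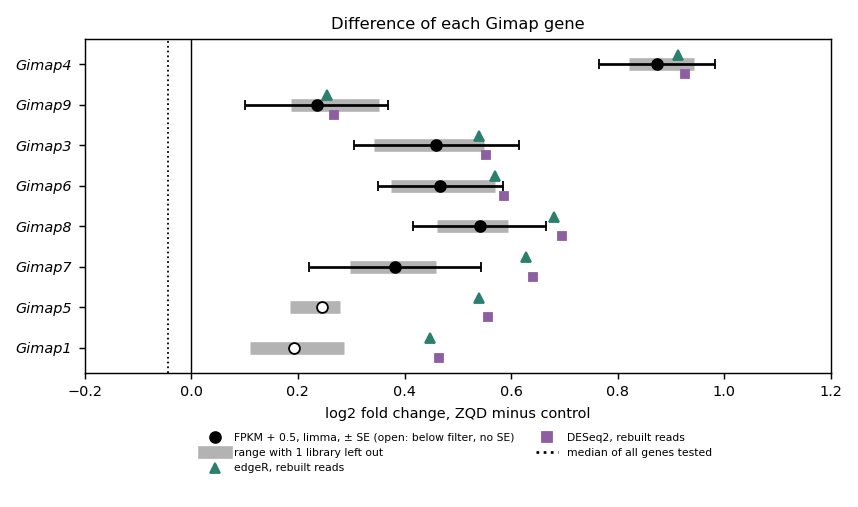
Log2 fold change of each Gimap gene, ZQD minus control, from log2(FPKM + 0.5) with its limma SE (circles, open for the 2 genes below the filter), the range with 1 library left out (grey), and edgeR and DESeq2 values on reads rebuilt from the FPKM of all genes (triangles and squares). All values lie to the right of 0, from 0.11 for Gimap1 without ZQD 1 to 0.94 for Gimap4, and the dotted line marks the median of all genes tested at -0.043.

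The order of levels was stable at the top and uncertain lower down. Gimap4 exceeded Gimap9, and Gimap9 exceeded Gimap3, in 7 of 7 libraries with ranges that did not overlap. Gimap3 and Gimap6 differed by less than their spread (3.39 ± 0.837 and 3.10 ± 0.730 FPKM, SD over all 7 libraries), and Gimap3 was the higher in 5 of 7. Gimap6 exceeded Gimap8 and Gimap8 exceeded Gimap7 in 7 of 7, as did Gimap7 over Gimap5. Gimap5 and Gimap1, at 0.442 ± 0.0979 and 0.429 ± 0.105 FPKM, could not be ordered. The mean level of Gimap4 was 42.8 times that of Gimap1.

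The members did not contribute evenly to the higher total in ZQD. Summed over the family, the level was 48.5, 44.7 and 42.0 FPKM in ZQD 1 to 3, against 27.2, 31.1, 30.3 and 24.9 FPKM in controls 1 to 4. Without Gimap4, the sum was 21.7, 19.8 and 19.0 FPKM in ZQD and 14.8, 17.3, 14.7 and 13.0 FPKM in control, so the groups stayed apart on the other 7 members. Gimap4 made up 55.3%, 55.8% and 54.8% of the family total in ZQD, against 45.7%, 44.5%, 51.3% and 47.9% in control. The ratio of Gimap4 to its neighbour Gimap9, which does not depend on the scaling of a library, was 3.32 ± 0.266 in ZQD (SD, n = 3) and 2.15 ± 0.441 in control (SD, n = 4). Every ZQD ratio (3.02 to 3.54) was above every control ratio (1.69 to 2.75). Gimap4 was picked out by its difference between these groups, and Gimap9 had the smallest difference of the members tested. A higher Gimap4 share and ratio in ZQD follow from that choice, so they are given as a description only. The ratio of Gimap8 to Gimap6 overlapped between groups, at 0.723 ± 0.0582 in ZQD and 0.665 ± 0.0926 in control.

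**Figure D3:**
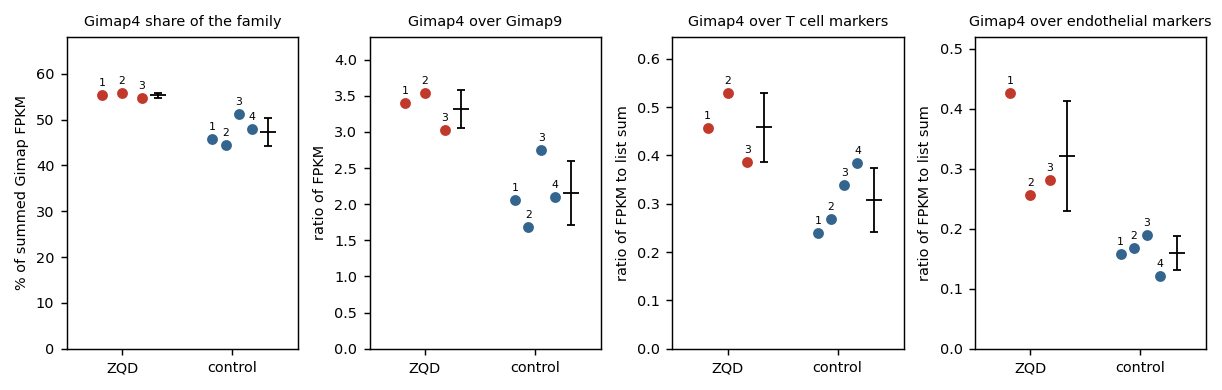
Quantities taken within each library, for 3 ZQD and 4 control libraries with library numbers and mean ± SD: Gimap4 as a percentage of summed Gimap FPKM, its ratio to Gimap9, and its ratio to the summed FPKM of 18 T cell and of 14 endothelial markers. In all 4 panels each ZQD point is above each control point, most narrowly for the T cell ratio (0.387 in ZQD 3 and 0.384 in control 4). Gimap4, the numerator in each panel, was picked out by its difference between these groups, so the panels are a description. Without Eng in the endothelial sum, ZQD 2 (0.379) falls below control 1 (0.384).

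Within the groups, the members moved together only in part. After each group's mean was removed, which takes out the ZQD difference, the Pearson correlation over the 7 libraries was positive for 12 of 15 pairs of tested members, with a median of 0.45. It was highest for Gimap3 with Gimap8 (0.72), and for Gimap4 it was 0.67 with Gimap3, 0.67 with Gimap8, 0.57 with Gimap6, 0.14 with Gimap9 and -0.019 with Gimap7. These are descriptions over few libraries, which share depth and composition. By the same measure among 11083 genes of at least 1 FPKM, the genes most like Gimap4 were Pilrb1 (0.981), mt-Co2 (0.979), Amn1 (0.965), Scg3 (0.963) and Fbxw2 (0.961). Those most like the mean of the members were Tmem219, Tbccd1, Dstyk, Srsf11 and Ssx2ip (0.973 to 0.961). None of these 10 genes is in the marker lists described below. Against the mean of each list, the mean of the members had a correlation of 0.65 with T cell, 0.62 with NK cell, 0.61 with fibroblast and 0.56 with naive lymphocyte genes. It was -0.60 with B cell and -0.56 with endothelial markers. mt-Co2 is mitochondrially encoded. The difference in mitochondrial share between ZQD and control does not enter its correlation, because each group's mean was removed.

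T cell markers belong to the cells in which Gimap4 is best known. All 17 of 18 markers that passed the filter had a positive log2 difference, beside 41.8% of all genes tested. Their median was 0.22 (0.080 without control 4) against 0.46 for the Gimap genes. In limma 0 passed. In DESeq2 1 passed, higher in ZQD, beside 4.13% of the genes given an adjusted p. In 3 of the 17 (Cd247, Trbc1 and Cd2) every ZQD library lay above every control, beside 5.35% of all genes tested. The summed level of all 18 markers was 58.6, 47.2 and 59.4 FPKM in ZQD 1 to 3, against 51.7, 51.5, 45.8 and 31.0 FPKM in controls 1 to 4. The groups overlapped, and control 4 was lowest, as it was for the family total. The defining T cell genes Trac, the T cell receptor alpha constant region, and Cd3e, a subunit of its signalling complex, were at 8.98 ± 1.41 and 1.23 ± 0.475 FPKM in ZQD and at 7.78 ± 1.65 and 1.19 ± 0.448 FPKM in control. Trbc2, Cd8a and Cd8b1 had log2 differences of 0.47, 0.28 and 0.22 and overlapped between groups. Relative to the T cell sum, Gimap4 was 0.458 ± 0.0709 in ZQD (SD, n = 3) and 0.308 ± 0.0656 in control (SD, n = 4), with ZQD 3 (0.387) barely above control 4 (0.384). The whole family relative to that sum overlapped, at 0.828 ± 0.121 in ZQD and 0.648 ± 0.117 in control. The part of T cell content in the Gimap values was not tested.

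Genes of naive lymphocytes and their survival were mixed. Of 10 measured among 12, 4 had a positive and 6 a negative difference, with a median of -0.014, and 0 passed in limma. In DESeq2 2 passed, both higher in ZQD, beside 4.13% of the genes given an adjusted p. In 3 of the 10, Klf2 among them, every ZQD library lay above every control, beside 5.35% of all genes tested. Wholly lower in ZQD were 0, beside 9.84%. Klf2, a transcription factor of quiescent T cells and of endothelium, was at 16.0, 17.7 and 17.1 FPKM in ZQD, against 13.0, 10.5, 10.2 and 13.6 FPKM in control, with no overlap. The interleukin 7 receptor Il7r (3.52 ± 1.26 FPKM in ZQD and 4.28 ± 1.47 in control), the egress receptor S1pr1 (10.4 ± 2.01 and 10.3 ± 0.741) and Foxp1 (6.83 ± 0.729 and 7.05 ± 0.884) overlapped between groups. B cells left little trace, with 4 of 11 markers measured. Ms4a1, a surface protein of B cells, had at most 14 reads in a library. The median log2 difference of those 4 markers was 0.077 (-0.093 without control 2). Of these, Ighm was at 14.7 ± 3.89 FPKM in ZQD and 14.1 ± 6.63 in control, and Pax5, Cd79b and Cd22 lay at 0.765 to 1.28 FPKM in ZQD and 0.783 to 1.61 in control on average. NK cell markers had a positive difference in 6 of 7 measured of 10, beside 41.8% of all genes tested, with a median of 0.35. Klra4, an NK cell receptor, was at 58.6 ± 14.1 FPKM in ZQD and 46.0 ± 11.5 in control, with overlap. The transcription factor Eomes (31.7 ± 1.63 FPKM in ZQD and 23.2 ± 5.82 in control), Klrk1 and Klrd1 did not overlap between groups. Each was higher in ZQD, as were 5.35% of all genes tested. For Eomes the margin was very small, with 29.86 FPKM in ZQD 1 and 29.79 in control 2. Of the NK cell markers, 0 passed in limma and 2 in DESeq2, higher in ZQD, beside 4.13% of the genes given an adjusted p. The summed level of all 10 was 96.9 to 120.5 FPKM in ZQD and 77.3 to 99.0 in control. Most of that sum came from Klra4 and Eomes.

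Endothelial markers stand for another known site of Gimap expression. They had a positive difference in 11 of 13 measured of 14, with a median of 0.11 (-0.065 without ZQD 2). Their summed level was 63.0, 97.3 and 82.0 FPKM in ZQD, against 78.6, 82.7, 81.9 and 98.2 FPKM in control, so the groups overlapped. Eng, an endothelial co-receptor that other cells also express, was at 32.3 ± 1.49 FPKM in ZQD and 43.3 ± 3.22 in control with no overlap, in the direction opposite to the Gimap genes. Of the 13, 0 were wholly higher in ZQD and Eng alone was wholly lower, beside 5.35% and 9.84% of all genes tested. Eng was also the only endothelial marker to pass in DESeq2 (adjusted p = 0.00827), beside 4.13% of the genes given an adjusted p. In limma 0 passed. Plvap, Cdh5 and Pecam1, which mark vessel walls and junctions, overlapped between groups, with log2 differences of 0.11, 0.17 and 0.059. Relative to the endothelial sum, Gimap4 was 0.321 ± 0.0917 in ZQD (SD, n = 3) and 0.159 ± 0.0284 in control (SD, n = 4). Each ZQD ratio (0.256 to 0.426) was above each control ratio (0.121 to 0.189). That separation rested on Eng, which made up 32.3% to 49.9% of the sum in ZQD and 46.3% to 58.9% in control. Without Eng, the ratio of Gimap4 to the sum was 0.851, 0.379 and 0.479 in ZQD 1 to 3, against 0.384, 0.340, 0.364 and 0.226 in controls 1 to 4. The groups then overlapped, since ZQD 2 lay below control 1. The part of endothelial content in the Gimap values was not tested.

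**Figure D4:**
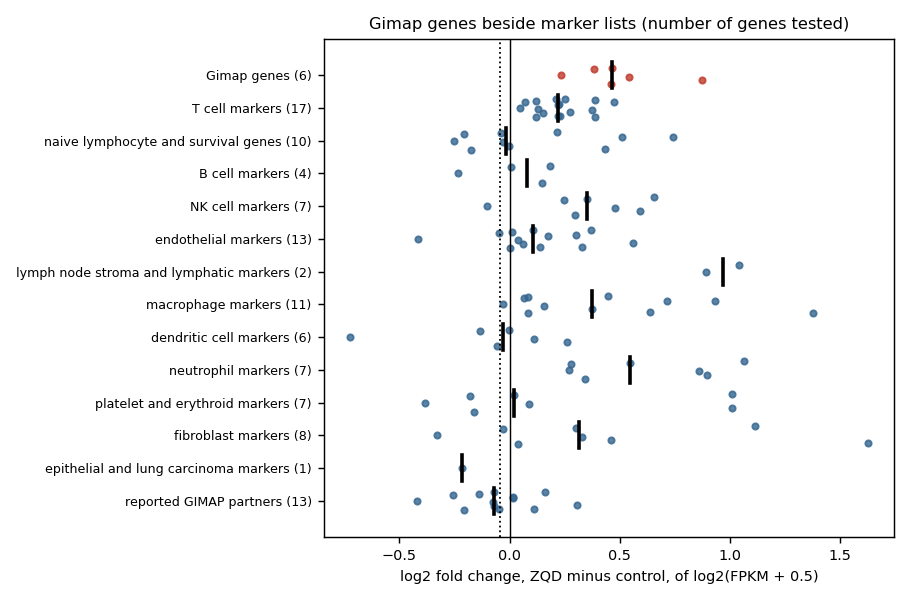
Log2 fold change, ZQD minus control on the scale of log2(FPKM + 0.5), of each tested gene of the Gimap family (red) and of marker lists (blue), with the number of genes tested; black bars are medians and the dotted line is the median of all genes tested. The Gimap median is 0.46, with medians of 0.22 for T cell, 0.35 for NK cell, 0.11 for endothelial and 0.38 for macrophage markers.

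Macrophage markers had a positive difference in 10 of 11, with a median of 0.38. In 3 of the 11 every ZQD library lay above every control, beside 5.35% of all genes tested. C1qb was at 308.3 ± 31.1 FPKM in ZQD and 238.6 ± 36.2 in control, and Cd68 at 283.3 ± 58.2 and 251.6 ± 27.7. C1qb was 1 of the 3, by a very small margin, with 285.33 FPKM in ZQD 1 and 285.09 in control 3. Neutrophil markers, led by S100a9 and Csf3r, had a positive difference in 7 of 7 measured of 10, with a median of 0.54. They were highest in ZQD 2, with a median of 0.18 without it. Summed over all 10 platelet and erythroid genes, of which Hbb-bs and Hba-a1 were the most abundant, the level was 414.8 FPKM in ZQD 2 and 62.0 to 243.1 FPKM in the other libraries. Dendritic cell markers (6 measured of 8) had a median of -0.029, with Itgax at 16.0 ± 6.74 FPKM in ZQD and 25.6 ± 6.00 in control and Clec9a at 1.27 ± 0.614 and 1.09 ± 0.227. Fibroblast markers (8 of 8 measured, led by Col3a1 and Col1a1) had a positive difference in 6 and a negative one in 2, with a median of 0.31, or -0.072 without control 4 and -0.013 without ZQD 2. Markers of lymph node stroma and lymphatics were checked because the cells were injected at the axilla, where lymph nodes lie. Their sum was 5.55, 9.34 and 1.43 FPKM in ZQD and 1.68, 1.36, 2.04 and 2.01 FPKM in control, and 2 of 8 were measured. Lyve1, a lymphatic and macrophage receptor, was at 6.11 FPKM in ZQD 2, and Cxcl13, a B cell chemokine, at 4.32 FPKM in ZQD 1. In limma 0 genes of these lists passed. In DESeq2 2 macrophage markers passed, higher in ZQD, beside 4.13% of the genes given an adjusted p. Of the dendritic, neutrophil, platelet and erythroid, fibroblast and lymphatic lists, 0 genes passed. The part of these cell types in the Gimap values was not tested.

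Reported partners of GIMAP proteins in cell survival and autophagy were mixed in direction. Of 13 measured genes, 5 had a positive and 8 a negative difference, with a median of -0.069, and 0 passed in limma. The survival factor Bcl2 was at 3.70 ± 0.296 FPKM in ZQD and 4.52 ± 0.432 in control, and the cell death activator Bcl2l11 at 4.10 ± 0.208 FPKM in ZQD and 4.56 ± 0.191 in control, both with ZQD wholly lower. Bak1, which permeabilises mitochondria, was wholly higher, at 84.1 ± 4.42 FPKM in ZQD and 68.4 ± 10.1 in control. The margin was very small, with 81.57 FPKM in ZQD 3 and 81.46 in control 2. Of the 13 genes, 2 were wholly lower and 1 wholly higher in ZQD, beside 9.84% and 5.35% of all genes tested. Nothing about the partners is read from these counts. Gabarapl2 was at 6.04 ± 1.31 FPKM in ZQD and 6.98 ± 0.790 in control, with overlap. The abundant Mcl1, Gabarap and Ctnnb1 had log2 differences of 0.014, -0.074 and -0.069. Most of these genes are expressed by many cell types.

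The genes beside the cluster were looked at for a shared difference along the chromosome. Tmem176b, an immune cell membrane protein gene after Gimap3, was at 30.5, 22.9 and 28.1 FPKM in ZQD, against 35.4, 32.2, 36.3 and 30.6 FPKM in control. Each ZQD library was below each control, as for 9.84% of all genes tested. Opposite in sign to the Gimap genes, its log2 difference was -0.31 (SE 0.11, limma adjusted p = 0.267). On the other side, AI854703 had at most 14 reads in a library, and Zfp775 beyond it was at 0.638 ± 0.0335 FPKM in ZQD and 0.681 ± 0.0675 in control, with overlap.

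How the genes overlap limits the values of the low members. In GENCODE M21, 36.0% of the exon bases of Gimap1 lie under the antisense gene Gimap1os, and the kit's strandedness is not given, so reads from the 2 strands there cannot be told apart. A readthrough gene, Gm28053, joins the loci of Gimap7, Gimap1 and Gimap5 and covers 3.48%, 6.44% and 3.69% of their exon bases. Gm28053 had 0 to 8 reads in any library and Gimap1os 2 to 16. Gimap3 and Gimap5 share 190 windows of 50 bases, or 7.52% of those of Gimap3 and 4.53% of those of Gimap5, so a part of their reads may be assigned to either or dropped. Gimap4, Gimap8 and Gimap9 had no exon overlap and no such window in common with any other transcript, and Gimap6 shared 0.170% of its windows.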

How the data were processed

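Bulk poly(A) RNA of 3 ZQD and 4 control tumours was sequenced. Values deposited by the authors were FPKM in every library, and raw counts in controls 1 and 2. HISAT2, featureCounts, Subread and DESeq2 are named in the submitters' processing notes. Their versions and the build, annotation and strand setting were not given in the sources used here. Groups came from the titles and treatment labels. Where both units were deposited, counts divided by FPKM and by the total counts gave a length for 27421 of 32212 genes. Of the reads rebuilt with it, 100% were within 0.05 of a whole number. These lengths equalled GENCODE M21 exon lengths for 98.2% of genes and for all 8 members. Symbols were matched for 98.0% of identifiers.

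Genes with at least 0.5 FPKM in 3 libraries (14838) were tested with limma 3.58.1 (trend, two-sided, Benjamini-Hochberg) on log2(FPKM + 0.5) in R 4.3.3. edgeR 4.0.16 and DESeq2 1.42.0 on rebuilt reads, other scalings, filters and pseudocounts, a replicate block and leaving out each library were alternatives. After the data were seen, a scaling that leaves out mitochondrially encoded genes, and edgeR and DESeq2 without a filter on low values, were added. The fits were tested on simulated data. Likeness was the Pearson correlation of group-centred values. Promoters came from RefSeq (GRCm38.p6), matched for all 8 members.

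The members and marker lists were chosen with earlier results of these data known. Named were all members, the 2 to 4 most abundant genes of each list, the 5 genes most like Gimap4 or the members, and the cluster's neighbours. Other genes were named after their values were seen. Depth was 32065288 to 49914394 reads, and counting errors cover counting only. Figures were drawn with Python 3.11.15 and matplotlib 3.10.9.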

Additional observations from a re-analysis of the deposited data

Results flagged for a closer look

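Among 90 sets of control values checked for 1 library far from the other 3, 5 were picked out, where chance picks out about 1 in 20. Gimap8 was at 1.37 FPKM in control 4, against 1.83 to 1.84 FPKM in the other controls. Gimap3 was at 2.11 FPKM in control 4, against 2.99 to 3.17 FPKM. Gimap9 was at 8.18 FPKM in control 2, against 5.64 to 6.03 FPKM, and Gimap5 was at 0.348 FPKM in control 1, against 0.378 to 0.383 FPKM. Of the marker genes, Cd22, a B cell receptor, was at 0.327 FPKM in control 4, against 0.878 to 0.977 FPKM. Without control 4, the log2 difference of ZQD over control was 0.46 for Gimap8 and 0.34 for Gimap3.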

How the results depend on the processing

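The log2 difference of each Gimap gene was positive in every alternative that gave it a value. Medians of 6 marker lists with no call in limma changed sign 33 times, counted over lists and alternatives together. In these lists the reported median is smaller than its spread between libraries. The changes were 13 for naive lymphocyte, 8 for platelet and erythroid, 5 for dendritic cell, 4 for fibroblast, 2 for B cell and 1 for endothelial genes. Of all values and counts of genes, 20 moved beyond the spread or the tolerance for a count, and 7 gained a call. No call could be lost, because the main limma fit made 0. The median log2 difference of the tested members was 0.46. It was 0.63 in both edgeR and DESeq2, which add no 0.5 to the values, and 0.40 to 0.52 with 1 library left out. Over the other scalings it was 0.37 to 0.51, while the median of all genes lay between -0.13 and 0.0036. Genes passing an adjusted p of 0.05 numbered 0 in limma and edgeR (2306 and 2221 at an unadjusted p of 0.05), 517 in DESeq2, and 0 in limma without any 1 library. On reads of all genes with no filter on low values, chosen after seeing the data, the counts were 4 in edgeR and 515 in DESeq2. With the replicate number as a block the count was 1 (Marco, chosen after its value was seen). Same-numbered libraries had deviation correlations of 0.252, 0.0998 and -0.150, and not every library correlated best with its own number, so the numbers were not taken to pair samples. The B cell marker median was -0.093 without control 2, against 0.077. Gimap1 and Gimap5 have no value in the other filtered fits, and the epithelial list has none at 1 FPKM. Depth limits Gimap1, Gimap5 and Gimap7, whose counting error reached 16.2%.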
